A study of Mus musculus with 100 samples.

Results

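The hedgehog pathway genes Shh, Ihh, Dhh, Ptch1, Smo, Gli1, Gli2, Gli3 and Hhip were followed through 37 RNA sequencing libraries in 18 groups of mouse stem cells, cultures derived from them and whole embryos. The 9 genes were chosen by symbol, as ligands, receptor, transducer, transcription factors and inhibitor of the pathway, and all 9 were found among the 23109 gene-level entries of each table. The series is titled for the enzyme activity of the histone methyltransferases MLL3 and MLL4 in early development and in differentiating stem cells. It lists 100 samples, of which the other 63 were not analysed here.

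All cultured cells lacked Mll3 on both alleles, the flox cells and the KI cells alike. The flox cells were Mll3-/-;Mll4flox/flox and the KI cells Mll3-/-;Mll4KI/KI, an allele name that the labels do not spell out. The KI cells were 2 clones, numbered 27 and 48, so a KI value from culture rests on these clones. Stem cells (day 0) and embryoid bodies, which are floating aggregates of differentiating stem cells, at days 4 and 10 had 1 flox library and 1 library of each clone per day. Neural cultures passed through embryoid bodies, received retinoic acid after day 4, and were sampled as neural progenitors at day 8 and as neurons at day 16, with 2 flox and 2 KI libraries each. Trophectoderm cultures carried a doxycycline-inducible CDX2 vector and were sampled at day 6. Extraembryonic endoderm cultures were sampled at day 5. Both extraembryonic cultures had 2 flox and 2 KI libraries. Whole embryos at embryonic days 8.5 and 9.5 were Mll3flox/KI;Mll4flox/KI;Sox2-Cre (KI embryos) or Mll3flox/KI;Mll4flox/+;Sox2-Cre (control embryos), 3 of each at each stage. Control embryos therefore also carried the Mll3 KI allele and Sox2-Cre. Sox2-Cre acts in the epiblast, so extraembryonic tissue of these embryos is largely spared. The labels do not say that the libraries of a group came from separate cultures, so p-values in culture measure the spread between libraries, which may be technical.

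Levels are given as CPM (counts-per-million), a gene's read count scaled to all reads on genes in its library, and each sentence that compares different genes uses the deposited RPKM, which is also divided by transcript length. Gene totals were 39.0 to 59.9 M (mega) reads in the neural libraries and 18.9 to 27.6 M reads in the others. A count of 3 reads corresponded to 0.159 CPM in the shallowest library and 0.05 CPM in the deepest, for counting error only. The 2 flox libraries of neural day 8 differed little beyond sampling noise, with a chi-square per degree of freedom of 1.5 against 2.76 to 54.8 for all other pairs within a group, and were counted as 2 samples. Mll3 (Kmt2c) and Mll4 (Kmt2d) transcripts were read in every group, which does not check the alleles, since a gene total need not show a deleted segment or a changed base. In day 8 neural cultures Kmt2d was at 196 to 202 CPM in flox and 189 to 256 CPM in KI. Genes were called changed at an adjusted p under 0.05 in edgeR's quasi-likelihood test, and fold changes are log2 values of KI over flox or control unless another pair is named.

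Hedgehog ligands are secreted, lipid-modified proteins that pattern the early embryo. PTCH1 is their receptor and, without ligand, keeps the membrane protein SMO inactive. Ligand binding frees SMO, which acts in the primary cilium on the transcription factors GLI1, GLI2 and GLI3. GLI2 is mainly an activator and GLI3 mainly a repressor. Gli1, Ptch1 and Hhip, which encodes a ligand-binding inhibitor, are themselves transcribed in response to the pathway and are widely used as its readouts. SHH from notochord and floor plate patterns the neural tube, IHH is made by visceral and gut endoderm, and DHH is known from Schwann cells, endothelium and testis.

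Sequence before the annotated start site was in the RefSeq table of build GRCm38.p6 for 7 of the 9 genes, and Shh and Gli1 had no entry. The 3 sequences below are shown because Ihh had the largest change among the tested comparisons of KI with flox, and Smo and Gli3 as 2 of the 3 genes, with Gli2, that were called lower in KI both in day 16 neural and in trophectoderm cultures under every alternative run. Each gives the 250 bases before the start site, 5′ to 3′ on the gene's strand, with every CpG in capitals. The Ihh sequence lies at chr1:74951673-74951922 on the minus strand, Smo at chr6:29735247-29735496 on the plus strand and Gli3 at chr13:15463473-15463722 on the plus strand. None of the 3 windows overlaps its own gene's annotated transcript.
Ihh: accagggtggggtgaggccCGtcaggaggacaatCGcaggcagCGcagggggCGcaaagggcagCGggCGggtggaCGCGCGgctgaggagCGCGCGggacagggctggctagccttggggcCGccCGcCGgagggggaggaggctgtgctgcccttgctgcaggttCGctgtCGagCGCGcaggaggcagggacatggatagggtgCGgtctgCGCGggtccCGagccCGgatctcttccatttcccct
Smo: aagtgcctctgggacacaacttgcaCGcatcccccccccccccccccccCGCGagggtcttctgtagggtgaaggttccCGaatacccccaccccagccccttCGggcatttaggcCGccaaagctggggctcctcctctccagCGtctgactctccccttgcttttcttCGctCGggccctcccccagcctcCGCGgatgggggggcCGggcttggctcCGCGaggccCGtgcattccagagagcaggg
Gli3: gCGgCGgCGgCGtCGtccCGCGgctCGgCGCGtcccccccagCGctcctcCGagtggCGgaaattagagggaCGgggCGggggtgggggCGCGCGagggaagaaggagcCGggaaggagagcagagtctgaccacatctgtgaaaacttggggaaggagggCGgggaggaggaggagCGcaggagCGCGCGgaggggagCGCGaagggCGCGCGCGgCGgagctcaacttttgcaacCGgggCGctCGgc

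The windows of the 7 genes held 41 CpG in Ptch1, 34 in Gli3, 28 in Hhip, 24 in Ihh, 22 in Gli2, 15 in Smo and 9 in Dhh, against a median of 6 over 32851 windows of the same length. Unlike the windows shown above, those of Ptch1, Hhip, Gli2 and Dhh overlapped the annotated span of their own gene. The GLI motif GACCACCCA, searched on both strands (TGGGTGGTC) with at most 1 mismatch, was not found in the 7 windows. It occurs exactly in 0.225% of all windows and with at most 1 mismatch in 5.79%. These letters being absent from a short window says nothing of binding elsewhere.

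Among the ligands, Shh was highest in embryos, at 33.9 ± 2.73 CPM (SD, n = 3) in E9.5 controls. In stem cells it was at 0 reads in flox, which allows a level of up to 0.159 CPM, at 0 reads in clone 48, and at 2 reads (0.0849 CPM) in clone 27. Between these ends lay embryoid bodies at day 10 (22.4 CPM in flox, 12.4 and 6.25 CPM in KI), neural cultures (3.25 to 6.36 CPM) and extraembryonic endoderm (3.07 to 4.97 CPM). Trophectoderm was low, at 0.154 to 0.907 CPM. Each embryo group overlapped its neighbour in this order, and 12 of the 17 pairs of neighbouring groups in this order overlapped.

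Ihh followed another order. It was highest in KI embryoid bodies at day 10, at 26.5 ± 2.85 CPM (SD, n = 2), followed by flox extraembryonic endoderm at 10.6 ± 0.189 CPM (SD, n = 2). Neither of these groups overlapped its neighbour in the order. Day 8 neural cultures held 2.35 to 4.51 CPM, and day 16 neural cultures 0.0727 to 0.15 CPM. E8.5 embryos of both genotypes ranged from 1.18 to 7.12 CPM, and the summed level of 11 visceral endoderm markers in the same embryos ranged from 225 to 734 CPM. How far that tissue moved the Ihh values was not tested.

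Dhh was scarce everywhere. It was under 1 CPM in 31 of 37 libraries and at or under 3 reads in 13. Its highest group was KI extraembryonic endoderm, at 3.02 ± 0.227 CPM (SD, n = 2), next to 1.44 ± 0.0544 CPM (SD, n = 2) in flox. Day 8 neural KI cultures were the lowest, at 0.0434 CPM, which is 2 reads in each library.

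Compared per length, the ligand with the largest share of the summed RPKM of the 3 differed between cultures. Shh held 85.6% to 96.4% in the 4 embryo groups and 94.7% (flox) and 94.5% (KI) in day 16 neural cultures. Dhh led in trophectoderm, with 74.5% in flox and 57% in KI, of a summed ligand level of only 0.441 and 0.571 RPKM. The leading ligand differed between flox and KI in 3 cultures. In neural progenitors at day 8 Ihh held 55.9% in flox and Shh 64.5% in KI. In extraembryonic endoderm Ihh held 69.8% in flox and 4.27% in KI, where Shh held 56.5%. In embryoid bodies at day 10 Shh held 83.5% in the flox library, while Ihh held 74.2% in KI.

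**Figure D1:**
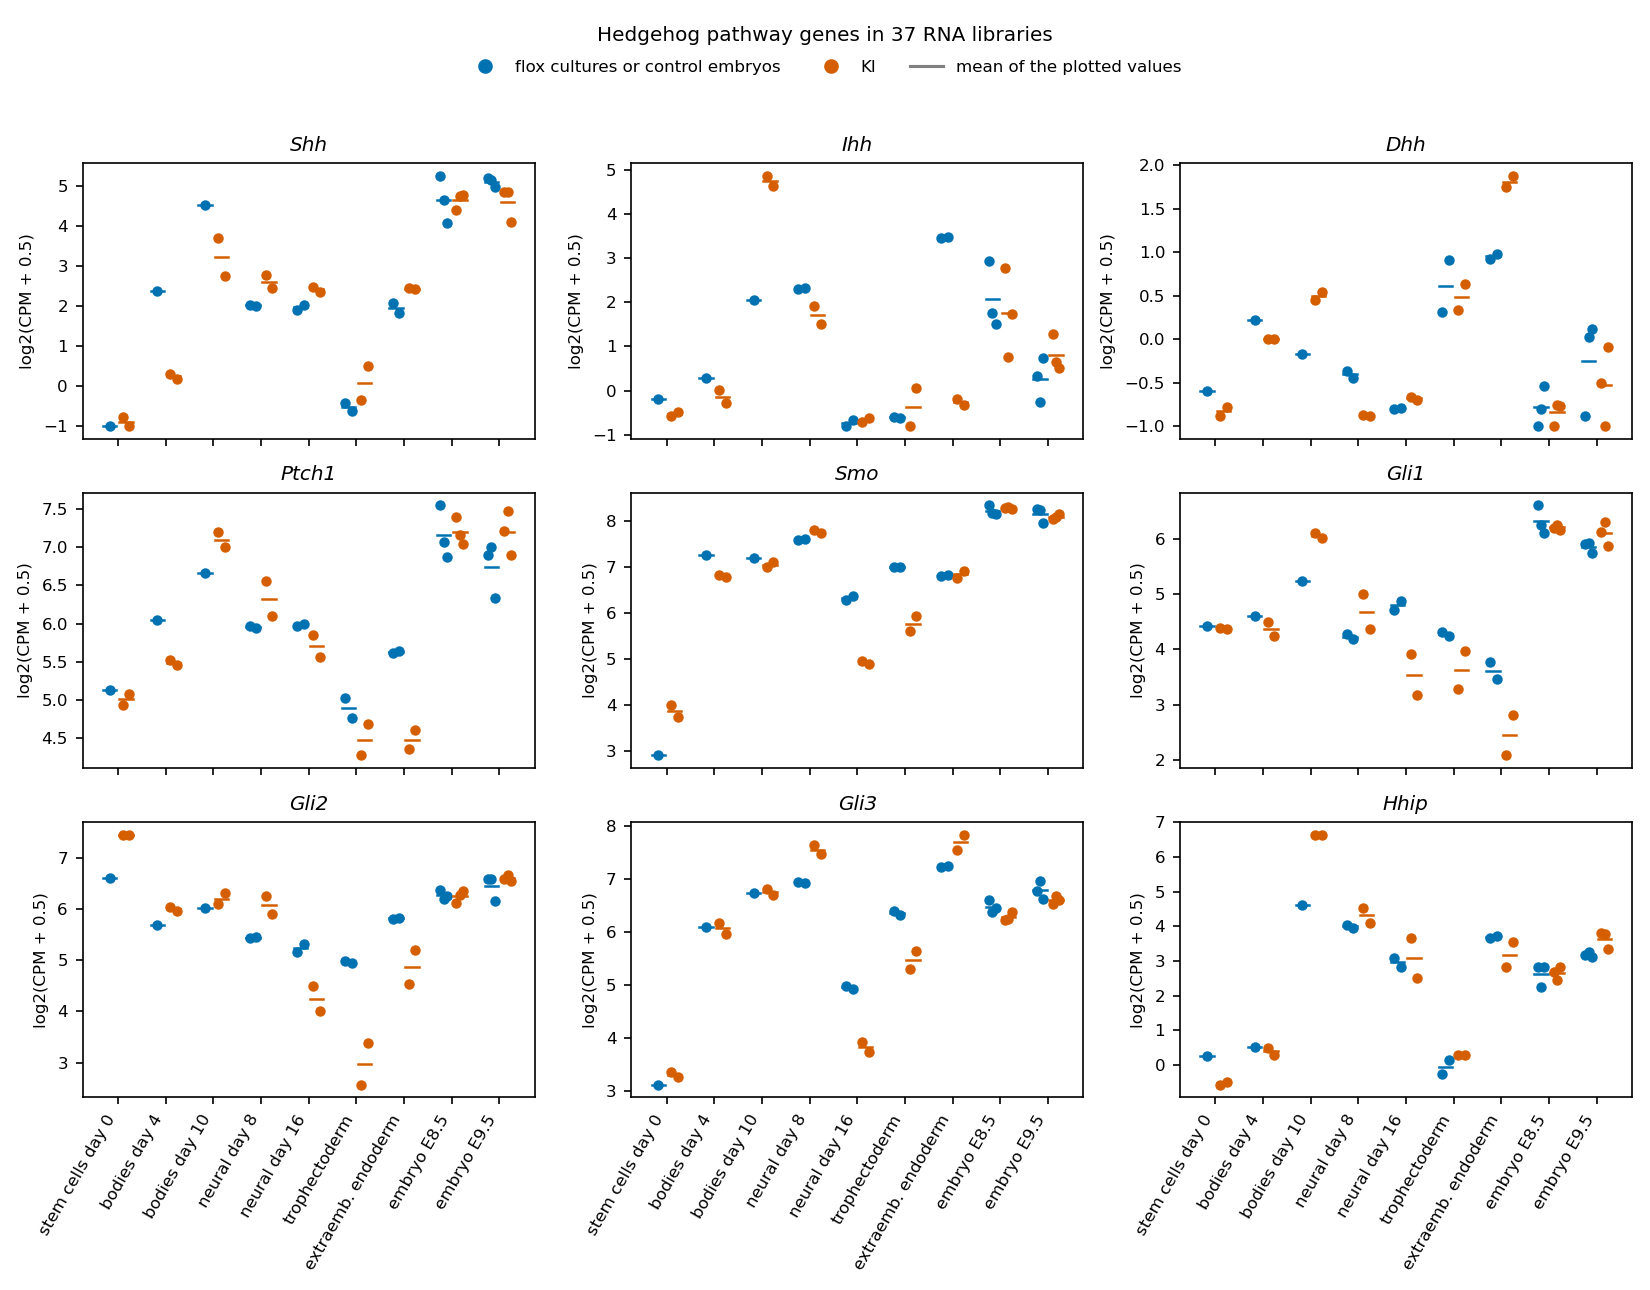
Level of each of the 9 genes as log2(CPM + 0.5) in every library, with flox cultures or control embryos in blue and KI in orange, by culture or embryo stage. Short bars are the means of the plotted values. The panels have separate vertical scales, and the low points of Dhh, Shh and Ihh stand for a few reads or none.

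**Figure D2:**
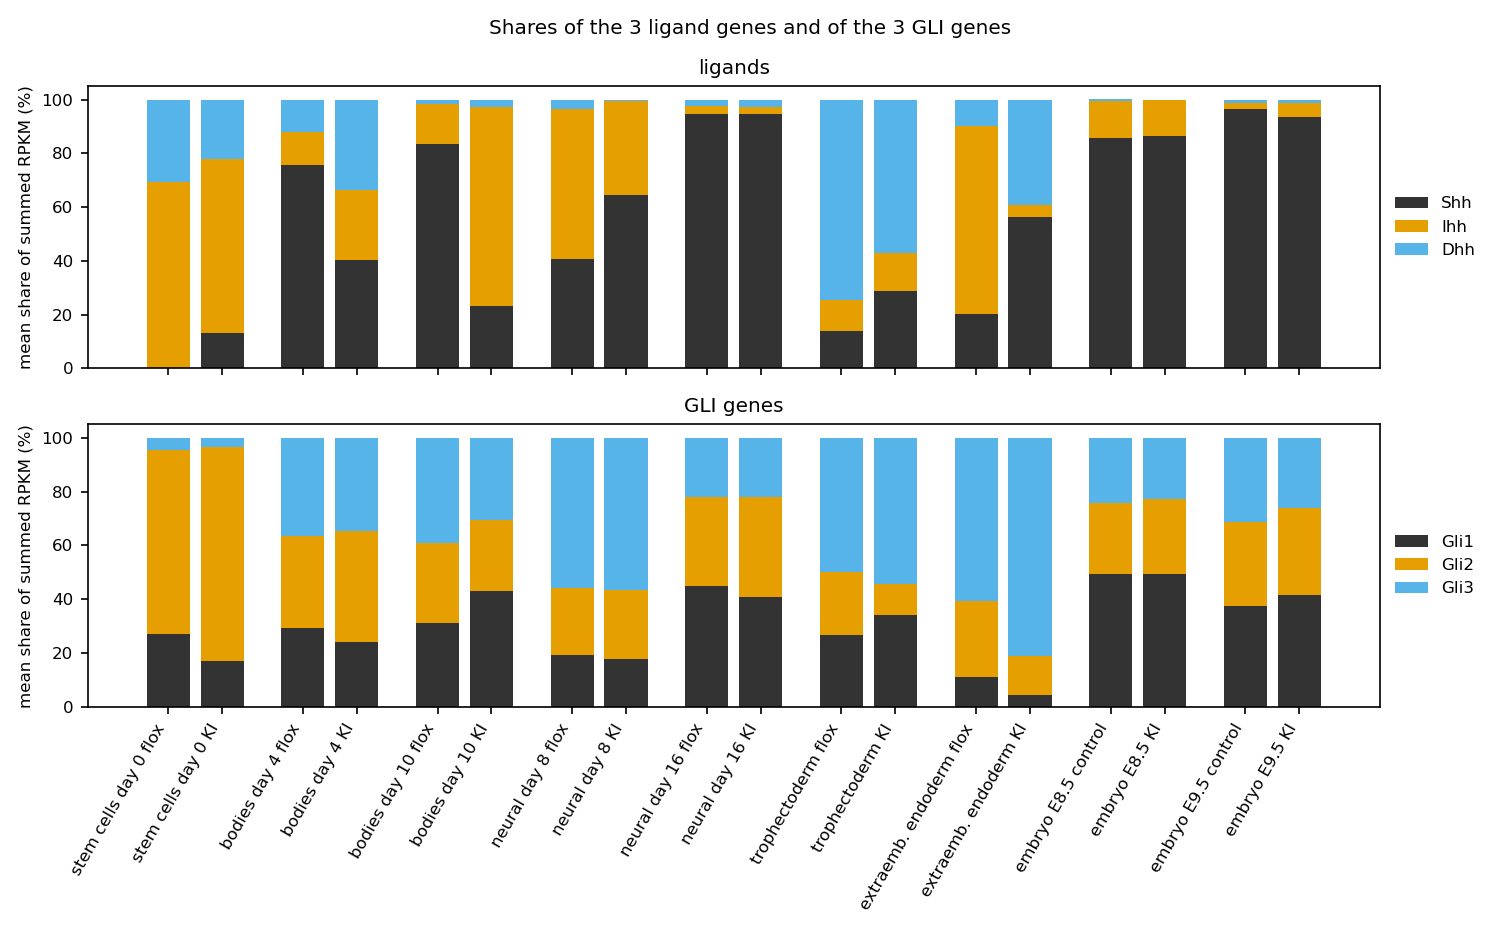
Mean share of each ligand gene (top) and each GLI gene (bottom) in the summed RPKM of its 3 genes, in percent, for the 18 groups. Ihh takes 69.8% of ligand RPKM in flox extraembryonic endoderm and 4.27% in KI, and Gli2 takes 68.5% and 79.6% of GLI RPKM in stem cells.

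Ptch1, the receptor and a target gene, was read in every library, from 18.9 to 186 CPM. It was highest in embryos, where the 4 groups ranged from 79.9 to 186 CPM, and in KI embryoid bodies at day 10 (127 and 146 CPM). It was lowest in KI trophectoderm (18.9 and 25.3 CPM) and KI extraembryonic endoderm (20 and 24 CPM), which overlapped. Smo covered a wider range. Stem cells held 7.03 CPM in flox and 13 and 15.7 CPM in KI, and the embryo groups held 248 to 326 CPM.

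The GLI genes divided the cultures differently. Gli1 was highest in E8.5 embryos (68.2 to 96.5 CPM) and lowest in KI extraembryonic endoderm (3.75 and 6.57 CPM). Gli2 was highest in stem cells, at 174 and 175 CPM in KI and 97.6 CPM in flox, where it made up 79.6% and 68.5% of GLI RPKM, and lowest in KI trophectoderm (5.41 and 9.87 CPM). Gli3 was highest in KI extraembryonic endoderm (188 and 229 CPM) and KI neural day 8 (177 and 199 CPM), and lowest in stem cells (8.14 to 9.72 CPM). Per length, Gli1 took the largest share of GLI RPKM in E8.5 embryos, 49.5% in controls and 49.4% in KI. Hhip was at 99.4 and 99.5 CPM in KI embryoid bodies at day 10, and no other group exceeded 23.9 CPM. It was under 1 CPM in 10 libraries, those of stem cells, day 4 embryoid bodies and trophectoderm.

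In neural progenitors at day 8, Shh, Ptch1, Gli2 and Gli3 rose in KI relative to flox, and Ihh and Dhh fell. These are 6 of 9 genes, beside 19.5% of 16439 genes called in the same comparison, 6.3% higher and 13.2% lower. The median of the 9 fold changes was 0.42, against 0.005 over all genes. Only the Gli3 call held under all 10 alternatives run.

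Gli3 was at 123 and 122 CPM in flox and at 199 and 177 CPM in KI clones 27 and 48, so the groups did not overlap. Its log2 fold change was 0.65 (SE 0.09, edgeR adjusted p = 0.000227). Gli2 was at 42.6 and 43.2 CPM in flox and 76.5 and 59.6 CPM in KI. Both clones were above both flox libraries, clone 27 by more. The fold change was 0.70 (SE 0.15, edgeR adjusted p = 0.00504), and 0.51 without clone 27 (edgeR adjusted p = 0.0876). Summed neuron markers were lower in KI at day 8, at 672 to 759 CPM against 1009 to 1015 CPM in flox, and their part in the Gli2 and Gli3 results was not tested.

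Shh stood at 3.59 and 3.52 CPM in flox and 6.36 and 4.93 CPM in KI, a fold change of 0.70 (SE 0.16, edgeR adjusted p = 0.00835). Ptch1 stood at 62.3 and 60.8 CPM in flox and 93.4 and 67.8 CPM in KI, a fold change of 0.42 (SE 0.13, edgeR adjusted p = 0.0437). The 2 genes did not overlap between the groups, and in both clone 27 was the higher. Without clone 27 neither was called, with Shh at 0.51 (edgeR adjusted p = 0.081) and Ptch1 at 0.18 (edgeR adjusted p = 0.424). Leaving out either flox library also ended both calls. The Ptch1 call was lost as well without TMM (0.39, edgeR adjusted p = 0.0773) and with only the 2 groups fitted (0.42, edgeR adjusted p = 0.0643).

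Ihh was lower in KI, at 3.28 and 2.35 CPM against 4.43 and 4.51 CPM, with a fold change of -0.64 (SE 0.20, edgeR adjusted p = 0.0409). The groups did not overlap, but the call was lost without either flox library, without clone 48 (-0.42, edgeR adjusted p = 0.26), and in DESeq2 (adjusted p = 0.222). Summed visceral endoderm markers moved the same way, at 113 to 115 CPM in flox and 30.8 to 33.9 CPM in KI. Summed gut endoderm markers moved the other way, at 14.5 to 14.7 CPM in flox and 36.3 to 43.4 CPM in KI. Their part in the Ihh result was not tested. Dhh rested on 24 reads in flox and 4 in KI, a ratio of 0.17 with a 95% counting interval of 0.0429 to 0.495. Its call was lost without flox 1, without clone 48, and in DESeq2 (adjusted p = 0.168). Summed endothelium markers were 108 to 109 CPM in flox and 13.6 to 20.4 CPM in KI. Summed Schwann and neural crest markers overlapped, at 16.5 to 16.9 CPM in flox and 16.4 to 17.4 CPM in KI. The part of either list in the Dhh value was not tested. In bulk samples such as these, fewer cells of a type and less RNA per cell cannot be told apart.

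The remaining 3 genes did not pass in edgeR at day 8. Smo had a fold change of 0.21 (SE 0.09, edgeR adjusted p = 0.114), Gli1 of 0.52 (SE 0.25, edgeR adjusted p = 0.224) and Hhip of 0.37 (SE 0.35, edgeR adjusted p = 0.575). DESeq2 called Gli1 (adjusted p = 0.0473) and Smo (adjusted p = 0.0378) higher, and edgeR called Smo when only these 2 groups were fitted (adjusted p = 0.0249). In Gli1 and Hhip clone 27 was again above clone 48, at 31.4 against 20.1 CPM and at 22.7 against 16.6 CPM. Summed floor plate markers were also higher in KI, at 185 to 222 CPM against 77.9 to 79.9 CPM in flox. Most of this sum was Ntn1, at 170 to 206 CPM in KI and 61.8 to 63.2 CPM in flox, which stem cells also held at 248 to 259 CPM. The floor plate marker Foxa2 was at 6.36 to 6.92 CPM in KI and 3.83 to 4.12 CPM in flox. The part of these genes in the Shh result was not tested.

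At day 16, in neurons, the transducer and all 3 GLI genes were lower in KI. Smo, Gli1, Gli2 and Gli3 fell and Shh rose, 5 of 9 genes, in a comparison where 46.9% of 16439 genes were called, 27.1% higher and 19.7% lower. The median of the 9 fold changes was -0.07, against 0.086 over all genes.

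Smo was at 77.5 and 83.4 CPM in flox and 30.7 and 29.3 CPM in KI, far apart and close within each group. The fold change was -1.22 (SE 0.09, edgeR adjusted p = 8.73e-07). Gli3 was at 31.2 and 30 CPM in flox and 14.6 and 12.8 CPM in KI, a fold change of -0.96 (SE 0.09, edgeR adjusted p = 9.03e-06). Gli2 was at 35.2 and 39.5 CPM in flox and 22 and 15.5 CPM in KI, a fold change of -0.79 (SE 0.15, edgeR adjusted p = 0.00121). These 3 genes did not overlap between groups, and their calls held under the 10 alternatives run for each.

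Gli1 was at 25.7 and 29 CPM in flox and 14.6 and 8.5 CPM in KI, without overlap. Its fold change was -1.05 (SE 0.26, edgeR adjusted p = 0.0107), and -0.95 without flox 2 (edgeR adjusted p = 0.0879). Shh rose, from 3.25 and 3.56 CPM in flox to 5.09 and 4.63 CPM in KI, by a fold change of 0.72 (SE 0.16, edgeR adjusted p = 0.00331), also under all 10 alternatives. The readout Ptch1 differed by -0.07 (SE 0.13, edgeR adjusted p = 0.691). Hhip had a fold change of 0.43 (SE 0.37, edgeR adjusted p = 0.375) with its clones apart, at 12.2 and 5.24 CPM around the flox values of 8.08 and 6.56 CPM. Without clone 48 it was called higher (0.92, edgeR adjusted p = 0.0045), and without clone 27 the value was -0.26.

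Cell type markers differed between the same libraries. The summed level of 5 neuron markers was 2425 to 2519 CPM in flox and 3958 to 4425 CPM in KI, and that of 5 neural progenitor markers was 183 to 198 CPM in flox and 138 to 140 CPM in KI. Summed endothelium markers were 44.2 to 47.4 CPM in flox and 2.25 to 5.31 CPM in KI. Summed visceral endoderm markers were 85.1 to 86.8 CPM in flox and 15.6 to 24.8 CPM in KI. The part of these lists in the lower Smo and GLI levels was not tested. Summed floor plate markers were 125 to 136 CPM in flox and 229 to 245 CPM in KI. Of these 5 genes only Spon1 and Ntn1 reached 1 CPM in these groups, and Foxa2 was at 0.103 to 0.851 CPM. Their part in the higher Shh level was not tested.

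From day 8 to day 16 Smo, Gli3, Ihh and Hhip fell in both genotypes, while Shh did not pass the test in either. In flox 5 of 9 genes fell and none rose, beside 77.1% of genes called, 38.4% higher and 38.7% lower. In KI 7 fell and 1 rose, beside 79.9% called, 40.7% higher and 39.2% lower. Over the same interval summed neural progenitor markers dropped from between 1113 and 1143 CPM to between 138 and 198 CPM. Summed gut endoderm markers dropped from between 14.5 and 14.7 CPM to between 0.769 and 0.817 CPM in flox, and from between 36.3 and 43.4 CPM to between 1.75 and 3.02 CPM in KI. Summed visceral endoderm markers changed less, from 113 to 115 CPM down to 85.1 to 86.8 CPM in flox. In KI they went from 30.8 to 33.9 CPM down to 15.6 to 24.8 CPM. The part of these lists in the changes from day 8 to day 16 was not tested.

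Smo fell by a log2 fold change of -1.24 in flox (SE 0.09, edgeR adjusted p = 5.11e-08) and -2.68 in KI (SE 0.09, edgeR adjusted p = 4.13e-11). Gli3 fell by -1.96 in flox (SE 0.09, edgeR adjusted p = 1.32e-09) and -3.58 in KI (SE 0.10, edgeR adjusted p = 8.35e-12). Both thus fell further in KI. Ihh fell by -5.47 in flox, from 422 reads to 9, and by -4.19 in KI. Gli2 differed by -0.17 in flox (edgeR adjusted p = 0.323) and fell by -1.66 in KI (edgeR adjusted p = 5.33e-07).

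Gli1 differed by 0.61 in flox (edgeR adjusted p = 0.0554), a value that DESeq2 called (adjusted p = 0.00564), and fell by -0.96 in KI (edgeR adjusted p = 0.00817). The Gli1 call in KI was lost with only the 2 groups fitted (-0.99, edgeR adjusted p = 0.0636). Ptch1 differed by 0.06 in flox and fell by -0.43 in KI (edgeR adjusted p = 0.0099), or by -0.18 without the day 8 library of clone 27 (edgeR adjusted p = 0.199). Its call was also lost without the day 16 library of clone 48. Hhip fell by -1.05 in flox (edgeR adjusted p = 0.0336) and -0.98 in KI (edgeR adjusted p = 0.0378). The flox call was lost on leaving out any 1 of its 4 libraries, and the KI call without the day 8 library of clone 27 or with only the 2 groups fitted (edgeR adjusted p = 0.16). Both were lost without the filter on low counts (edgeR adjusted p = 0.0912 in flox and 0.0978 in KI). Dhh fell by -1.71 in flox (edgeR adjusted p = 0.00815), from 24 reads to 7, a call lost in DESeq2 (adjusted p = 0.18) and without flox 1 of either day. It rose by 1.65 in KI, where the values are 4 and 14 reads, a ratio of 2.84 with a 95% counting interval of 0.892 to 11.8. The Dhh call in KI was lost without any 1 of its 4 libraries and with the clone as a block (edgeR adjusted p = 0.0696). It was also lost in DESeq2 (adjusted p = 0.231), without TMM (edgeR adjusted p = 0.0563) and without the filter on low counts (edgeR adjusted p = 0.0796). Summed endothelium markers in KI went the other way, from 13.6 to 20.4 CPM down to 2.25 to 5.31 CPM. Schwann and neural crest markers in KI also fell, from 16.4 to 17.4 CPM down to 10.2 to 12.4 CPM. Their part in the Dhh value was not tested.

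Whether the KI effect itself differed between days was tested as an interaction, in which 33.2% of genes were called, 19.2% higher and 14% lower, and 5 of the 9 members. Smo (-1.43, SE 0.12, edgeR adjusted p = 8.23e-06), Gli3 (-1.61, SE 0.13, edgeR adjusted p = 5.49e-06) and Gli2 (-1.49, SE 0.21, edgeR adjusted p = 0.000269) had a lower KI effect at day 16 than at day 8, as did Gli1 (-1.57, SE 0.36, edgeR adjusted p = 0.0118). The Gli1 call was lost without either day 8 flox library or without flox 2 of day 16 (edgeR adjusted p = 0.0633 to 0.0737). Gli2 and Gli3 were thus higher in KI at day 8 and lower in KI at day 16, each past the threshold on both days. Dhh had an interaction of 3.36 on few reads, and Ptch1 one of -0.49 (edgeR adjusted p = 0.0636). The Ptch1 difference was called under 7 of 14 alternatives, among them the clone or flox number as a block (-0.48, edgeR adjusted p = 0.00918), DESeq2 (adjusted p = 0.0263) and no TMM (edgeR adjusted p = 0.0245). Shh had an interaction of 0.02 (SE 0.23, edgeR adjusted p = 0.96).

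**Figure D3:**
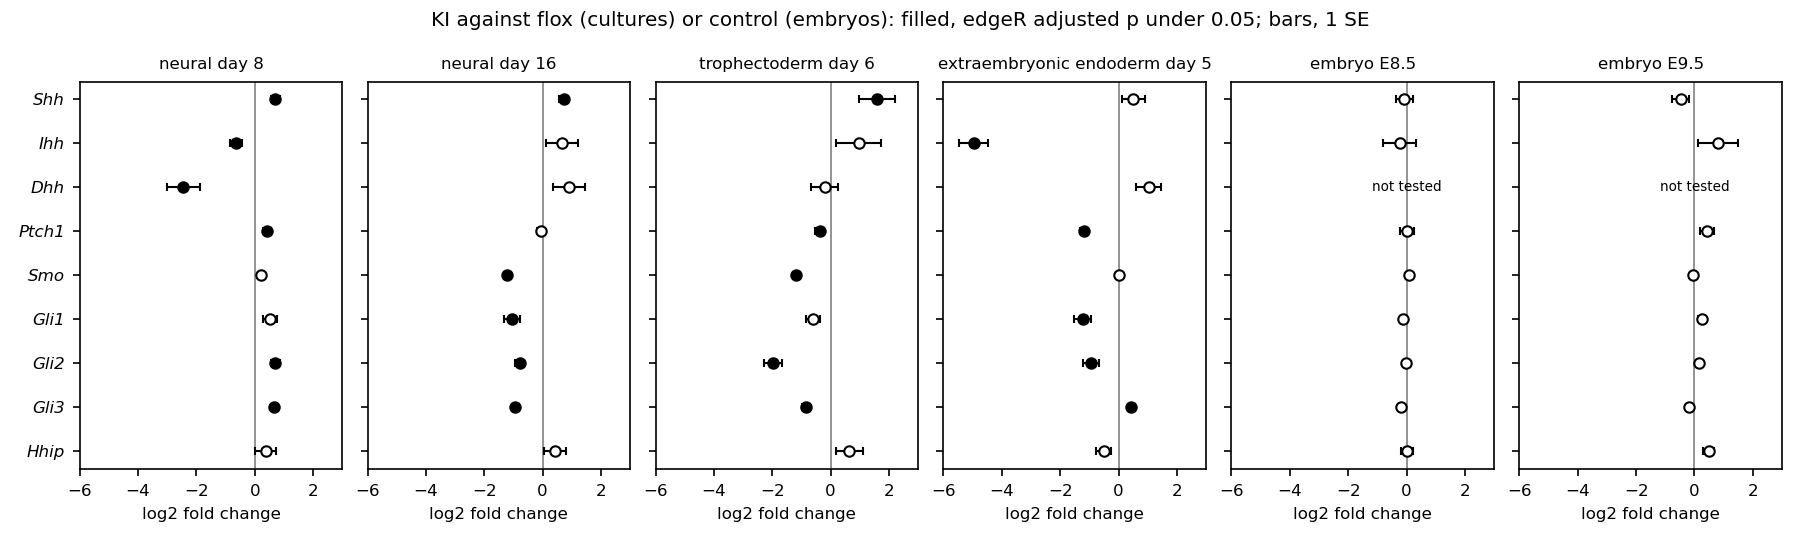
Log2 fold change of KI over flox (cultures) or over control (embryos) for the 9 genes, with 1 SE, in 6 comparisons. Filled points have an edgeR adjusted p under 0.05. Smo, Gli1, Gli2 and Gli3 lie left of 0 at neural day 16, Ihh lies at -4.97 in extraembryonic endoderm, and no point is filled in the embryos.

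Extraembryonic endoderm had the largest change of any of the 9 genes between KI and flox. Ihh, Ptch1, Gli1 and Gli2 fell in KI and Gli3 rose, 5 of 9, beside 35.5% of 15532 genes called, 18.1% higher and 17.4% lower. The median of the 9 fold changes was -0.51, against 0.001 over all genes.

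Ihh was at 10.5 and 10.7 CPM in the flox libraries and at 0.375 and 0.303 CPM in clones 27 and 48. The 4 values fell into 2 tight pairs, with 210 and 216 reads in flox and 6 to 8 in KI. The fold change was -4.97 (SE 0.50, edgeR adjusted p = 3.55e-06), between -5.13 and -4.84 over 10 alternatives. Of 11 visceral endoderm markers all 11 fell in KI, and their summed level was 1839 to 1843 CPM in flox and 192 to 209 CPM in KI. Ttr and Apoa1, defining markers of that endoderm, were at 0 reads in KI. Summed gut endoderm markers were also lower in KI, at 43.4 to 62.5 CPM against 154 to 156 CPM in flox. The part of either list in the Ihh result was not tested.

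The target genes Ptch1 and Gli1 also fell. Ptch1 was at 48.6 and 49.3 CPM in flox and 20 and 24 CPM in KI, with a fold change of -1.18 (SE 0.14, edgeR adjusted p = 2.88e-05) that was called in the 10 alternatives. Gli1 was at 13.1 and 10.5 CPM in flox and 3.75 and 6.57 CPM in KI, with a fold change of -1.23 (SE 0.29, edgeR adjusted p = 0.00731). Neither overlapped between groups, although the Gli1 call was lost without flox 1 (-1.06, edgeR adjusted p = 0.0617). The inhibitor Hhip, at 12.2 and 12.7 CPM in flox and 6.57 and 11.2 CPM in KI, differed by -0.51 (SE 0.26, edgeR adjusted p = 0.148), and by -0.96 without clone 48 (edgeR adjusted p = 0.021).

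Gli2 and Gli3 moved in opposite directions. Gli2 was at 55.9 and 56.1 CPM in flox and 22.7 and 36.5 CPM in KI, a fold change of -0.95 (SE 0.28, edgeR adjusted p = 0.0446). Gli3 was at 150 and 151 CPM in flox and 188 and 229 CPM in KI, a fold change of 0.44 (SE 0.11, edgeR adjusted p = 0.00945). Groups did not overlap for either gene, but both calls were lost without either flox library, and Gli2 also without clone 27 (-0.64, edgeR adjusted p = 0.0695). The Gli3 share of GLI RPKM was 60.6% in flox and 81.2% in KI. Smo differed by 0.00 (SE 0.09), Shh by 0.51 (SE 0.39, edgeR adjusted p = 0.336) and Dhh by 1.03 (SE 0.43, edgeR adjusted p = 0.0748).

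In trophectoderm, Smo, Gli2, Gli3 and Ptch1 fell in KI and Shh rose, 5 of 9, in a comparison where 50.9% of 15532 genes were called, 26.7% higher and 24.2% lower. The median of the 9 fold changes was -0.38, against 0.005 over all genes.

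Gli2 was at 31.1 and 30.5 CPM in flox and 5.41 and 9.87 CPM in KI, a fold change of -1.98 (SE 0.32, edgeR adjusted p = 0.00252). Smo was at 129 and 128 CPM in flox and 48.7 and 60.9 CPM in KI, a fold change of -1.20 (SE 0.09, edgeR adjusted p = 1.15e-07). Gli3 was at 83.7 and 79.7 CPM in flox and 38.9 and 49.2 CPM in KI, a fold change of -0.86 (SE 0.11, edgeR adjusted p = 0.000104). In these 3 genes both clones were far below both flox libraries, clone 27 lowest, and their calls held under the 10 alternatives run for each.

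Ptch1 was at 32 and 26.8 CPM in flox and 18.9 and 25.3 CPM in KI, a fold change of -0.38 (SE 0.14, edgeR adjusted p = 0.0372) that was lost without flox 1 (-0.27, edgeR adjusted p = 0.226) or clone 27 (-0.21, edgeR adjusted p = 0.259). The Shh call rested on 33 reads in KI against 10 in flox, a ratio of 3.02 with a 95% counting interval of 1.45 to 6.86. It was 1.59 (SE 0.62, edgeR adjusted p = 0.046) with both clones and 0.56 without clone 48 (edgeR adjusted p = 0.552), and without either flox library it was lost as well. It was called under 3 of 9 alternatives, and neither in DESeq2 (adjusted p = 0.0505) nor without TMM (edgeR adjusted p = 0.0519). Gli1 differed by -0.60 (SE 0.25, edgeR adjusted p = 0.072), and was called lower without clone 48 (edgeR adjusted p = 0.00527). Ihh, Dhh and Hhip stood at 0.0727 to 1.38 CPM and none passed the test. Ihh, at 15 reads in clone 48 and 2 to 4 in the other libraries, was called without clone 27 (1.75, edgeR adjusted p = 0.0331) and lay at -1.04 without clone 48. Summed pluripotency markers were 862 to 881 CPM in flox and 230 to 323 CPM in KI. Summed trophoblast markers were 2929 to 2999 CPM in flox and 4956 to 5076 CPM in KI. Over all libraries most reads of the trophoblast list fell on Krt8 and Krt18, and the list also holds Cdx2, the gene of the inducible vector. Flox extraembryonic endoderm had a sum of 3075 to 3083 CPM. This sum, here and below, therefore does not single out trophoblast. Summed neural progenitor markers went from 324 to 340 CPM in flox down to 58.5 to 77.7 CPM in KI. Neuron markers went from at least 97.3 CPM in both flox libraries down to 17.8 to 20.5 CPM. Both sums moved the same way as Smo, Gli2 and Gli3, but flox stem cells held more of each, at 651 and 385 CPM. Sox2 is in both the neural progenitor and the pluripotency list. These sums therefore do not single out neural cells. Summed notochord markers went the same way as Shh, from 16.3 to 23 CPM up to 41.4 to 84.9 CPM, while floor plate markers went from 34.3 to 38.8 CPM down to 15 to 19.5 CPM. The part of these lists in the results was not tested.

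The KI effect differed between the 2 extraembryonic cultures in 4 of 9 genes, beside 35.3% of genes called, 18.3% higher and 17% lower. It was higher in trophectoderm for Ihh (5.93, SE 0.93, edgeR adjusted p = 0.00021) and Ptch1 (0.80, SE 0.20, edgeR adjusted p = 0.00688), and lower for Smo (-1.20, SE 0.12, edgeR adjusted p = 6.87e-06) and Gli3 (-1.30, SE 0.16, edgeR adjusted p = 0.000117). Gli2, which fell in both cultures, had a difference of -1.03 (SE 0.42, edgeR adjusted p = 0.114), which was called without trophectoderm clone 48 (-1.52, edgeR adjusted p = 0.02) or endoderm clone 27 (-1.34, edgeR adjusted p = 0.00903). Gli2 was called lower in KI in all 3 of day 16 neural, trophectoderm and extraembryonic endoderm cultures, and higher in KI at neural day 8. The endoderm call held under 5 of 10 alternatives, and was lost without TMM (edgeR adjusted p = 0.0531) and without the filter on low counts (edgeR adjusted p = 0.119).

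In stem cells and embryoid bodies the flox group had 1 library a day, so single days have no test of KI against flox. Genes were therefore listed by size, where clone 27 and clone 48 each stood 2-fold or more to 1 side of the flox library on the log2(CPM + 0.5) scale. No member met this at day 0, beside 7.68% of 12934 genes, 5.18% higher and 2.5% lower. Shh met it at day 4 as lower in KI, beside 5.88% of 13843 genes, 1.45% higher and 4.43% lower. Ihh and Hhip met it at day 10 as higher in KI, beside 7.42% of 14589 genes, 3.5% higher and 3.91% lower.

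Shh was at 4.7 CPM (92 reads) in flox at day 4 and at 0.731 and 0.633 CPM in KI. At day 10 it was at 22.4 CPM in flox and 12.4 and 6.25 CPM in KI, again lower in both clones. Summed notochord markers at day 4 were 501 CPM in flox and 292 to 318 CPM in KI, and floor plate markers 99.3 CPM and 66.7 to 69.7 CPM. Other lists also separated the day 4 flox library from KI, with endothelium markers at 227 CPM against 33.3 to 38.6 CPM, trophoblast markers at 2173 CPM against 803 to 873 CPM, gut endoderm markers at 37.5 CPM against 12.9 to 13.8 CPM and pluripotency markers at 728 CPM against 1281 to 1353 CPM. At day 10 notochord markers were 9.93 CPM in flox and 6 to 7.01 CPM in KI. Floor plate markers at day 10 went the other way from Shh, at 122 CPM in flox and 124 to 160 CPM in KI. What part these lists had in the Shh values was not tested. Ihh at day 10 was at 3.65 CPM in flox and 28.5 and 24.4 CPM in KI. Hhip at day 10 was at 23.9 CPM in flox and 99.5 and 99.4 CPM in KI. Both genes were far above the flox library in each clone, after all 3 libraries had been under 1 CPM at day 4.

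The target genes lay in the same direction at day 10 by less. Gli1 was at 37.1 CPM in flox and 68.1 and 63.7 CPM in KI, and Ptch1 at 101 CPM in flox and 146 and 127 CPM in KI. Summed visceral endoderm markers were 962 CPM in flox and 1448 to 1675 CPM in KI, and summed gut endoderm markers 24.2 CPM in flox and 95.1 to 121 CPM in KI. Their part in the Ihh, Hhip and target gene values was not tested. In stem cells Gli2 was at 97.6 CPM in flox and 175 and 174 CPM in KI, and Smo at 7.03 CPM in flox and 15.7 and 13 CPM in KI. There, summed neural progenitor markers were 651 CPM in flox and 326 to 367 CPM in KI. Pluripotency markers in stem cells were 4147 CPM in flox and 3275 to 3512 CPM in KI. Their part in the Gli2 and Smo values was not tested.

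For the KI effect averaged over days 0, 4 and 10, edgeR called 0 of the 9, beside 0.707% of 15991 genes, 0.4% higher and 0.306% lower. At an unadjusted p under 0.05 edgeR listed 2623 of all genes. Shh had an average fold change of -1.83 (SE 0.51, edgeR adjusted p = 0.155) and Gli2 of 0.42 (SE 0.11, edgeR adjusted p = 0.133), and DESeq2 called both (adjusted p = 0.0468 for Shh and 0.0257 for Gli2).

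Change over time could be tested within the KI clones. From day 0 to day 4, 6 of 9 genes rose and Gli2 fell, beside 50.3% of 15676 genes called, 26.5% higher and 23.8% lower. Smo rose by a log2 fold change of 2.87 (SE 0.10, edgeR adjusted p = 2.3e-06), Gli3 by 2.74 (SE 0.10, edgeR adjusted p = 2.44e-06) and Hhip by 1.98 (SE 0.28, edgeR adjusted p = 0.00098), while Gli2 fell by -1.54 (SE 0.09, edgeR adjusted p = 1.51e-05). Ptch1 rose by 0.38 (edgeR adjusted p = 0.0138), a call lost without 3 of the 4 libraries in turn. Shh went from 2 to 30 reads and Dhh from 3 to 22, ratios of 16.1 (95% counting interval 4.1 to 139) and 7.89 (2.37 to 41.2). Their calls (edgeR adjusted p = 0.00973 and 0.00618) were lost without the day 4 library of clone 27 for Shh and the day 0 library of clone 27 for Dhh. Over these days summed notochord markers went from 14.1 to 28.5 CPM up to 292 to 318 CPM, visceral endoderm markers from 10.2 to 10.9 CPM up to 97.1 to 105 CPM, and trophoblast markers from 72.5 to 83 CPM up to 803 to 873 CPM. Pluripotency markers went from 3275 to 3512 CPM down to 1281 to 1353 CPM. Floor plate markers, mostly Ntn1 at day 0, went the other way from Shh, from 249 to 260 CPM down to 66.7 to 69.7 CPM. The part of these lists in the changes was not tested.

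From day 4 to day 10, 6 of 9 genes rose in KI and none fell, beside 73.3% of genes called, 36.7% higher and 36.6% lower. Hhip rose by 6.83 (SE 0.14, edgeR adjusted p = 2.46e-07), Ihh by 5.91 (SE 0.25, edgeR adjusted p = 2.01e-06) and Shh by 3.67 (SE 0.49, edgeR adjusted p = 0.00038). The targets Gli1 and Ptch1 rose by 1.61 (SE 0.11, edgeR adjusted p = 1.14e-05) and 1.54 (SE 0.10, edgeR adjusted p = 8.45e-06), and Gli3 by 0.61 (SE 0.09, edgeR adjusted p = 0.000609). Smo, Gli2 and Dhh did not pass, at 0.17, 0.12 and 0.78. Over the same days in KI summed visceral endoderm markers went from 97.1 to 105 CPM up to 1448 to 1675 CPM, gut endoderm markers from 12.9 to 13.8 CPM up to 95.1 to 121 CPM, and pluripotency markers from 1281 to 1353 CPM down to 19.4 to 41 CPM. Summed notochord markers went the other way from Shh, from 292 to 318 CPM down to 6 to 7.01 CPM. Floor plate markers went from 66.7 to 69.7 CPM up to 124 to 160 CPM, and endothelium markers from 33.3 to 38.6 CPM up to 399 to 473 CPM. The part of these lists in the rises was not tested.

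**Figure D4:**
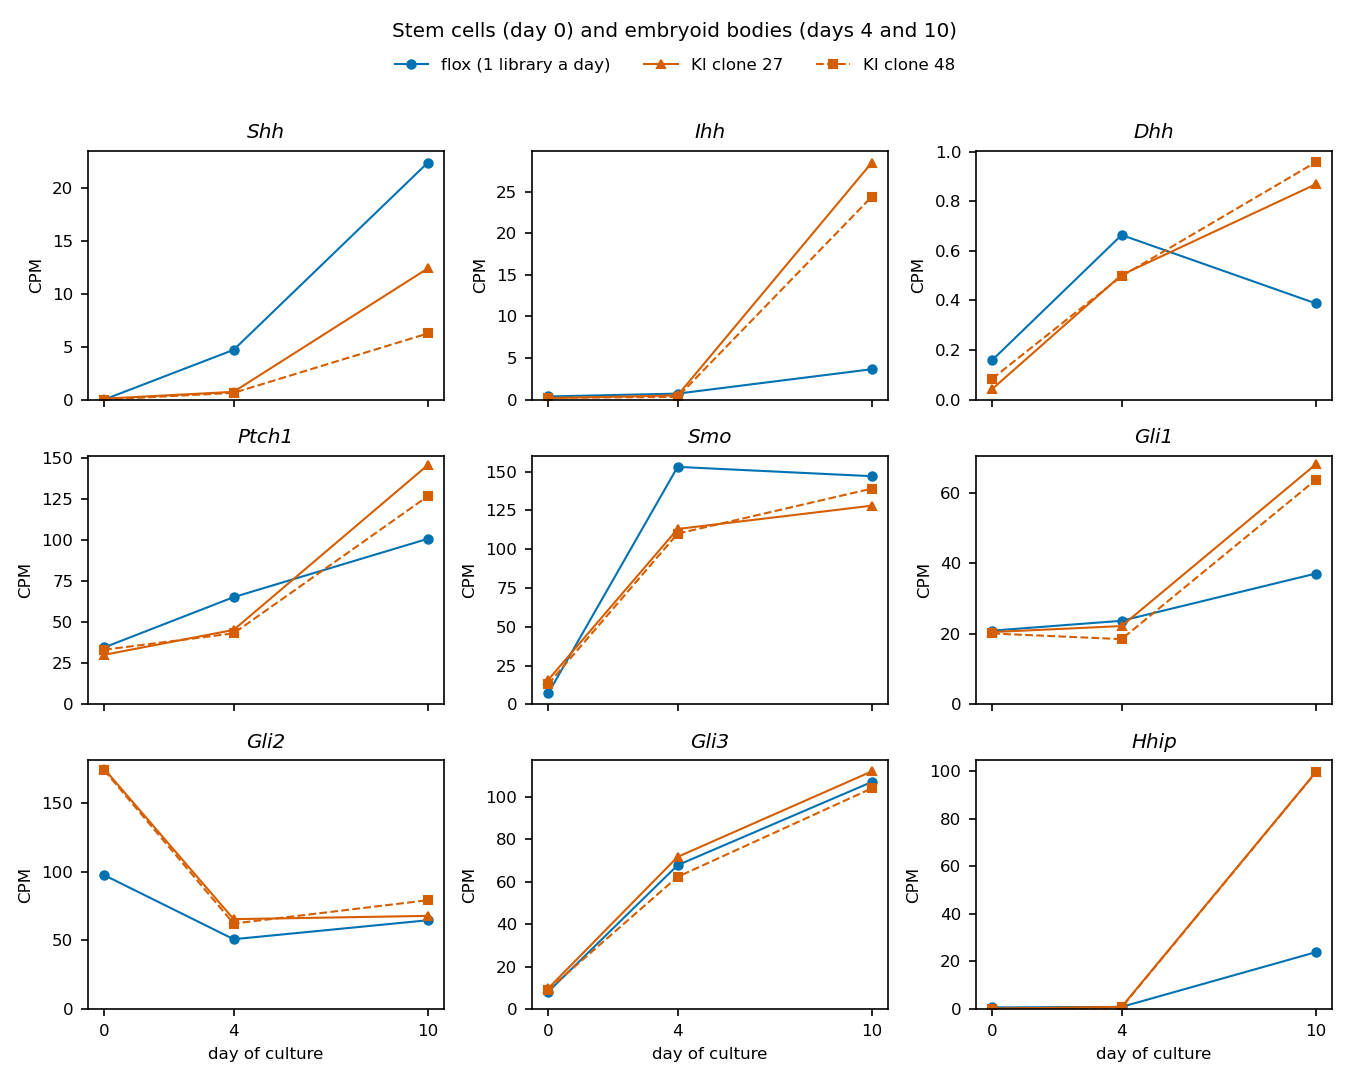
Level in CPM of each gene at days 0, 4 and 10 in the flox library (blue) and in KI clones 27 and 48 (orange), with 1 library per point. Shh is lower in both clones at days 4 and 10, Ihh and Hhip are higher in both at day 10, and Gli2 drops from day 0 to day 4 in all 3 series.

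In whole embryos, fitted without a block, no member was called between KI and control at either stage. At E8.5 0 of 8 tested genes passed, beside 5.46% of 15436 genes called, 3.63% higher and 1.83% lower. At E9.5 0 of 8 passed, beside 29.5% called, 14.6% higher and 14.9% lower. Dhh, at 0 to 0.582 CPM, was removed by the filter on low counts at both stages. At an unadjusted p under 0.05 edgeR listed 3012 of all genes at E8.5 and 6225 at E9.5, and DESeq2 called none of the 8 at either stage. With the number in the embryos' titles as a block the E8.5 count over all genes was 1321 in place of 843, with no member among them.

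At E8.5 Shh was at 37.5, 24.6 and 16.2 CPM in controls and 20.6, 26.5 and 26.6 CPM in KI. Ptch1 was at 186, 133 and 116 CPM in controls and 168, 142 and 131 CPM in KI, and Gli1 at 96.5, 75.3 and 68.2 CPM in controls and 72.5, 75.8 and 71.1 CPM in KI. In all 3 genes the KI embryos lay within the range of the controls, and the first control embryo was the highest of the 6. Gli3 was the member with the smallest adjusted p, at 97.7, 83 and 87 CPM in controls and 75, 75.5 and 82.7 CPM in KI, with a fold change of -0.19 (SE 0.08, edgeR adjusted p = 0.177).

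At E9.5 Hhip was at 8.58, 9.02 and 8.23 CPM in controls and 13.4, 13.3 and 9.59 CPM in KI. All 3 KI embryos were above all controls, and the fold change was 0.49 (SE 0.19, edgeR adjusted p = 0.0646). Gli1 was at 59.6, 59.9 and 53.1 CPM in controls and 69, 78.3 and 58.1 CPM in KI, a difference of 0.25 (SE 0.12, edgeR adjusted p = 0.118), and Ptch1 at 118, 127 and 79.9 CPM in controls and 147, 176 and 119 CPM in KI, a difference of 0.44 (SE 0.24, edgeR adjusted p = 0.203). For both targets the third embryo of each group was the lowest, and the groups overlapped. Without the third KI embryo Hhip (0.64, edgeR adjusted p = 0.0319) and Gli1 (0.36, edgeR adjusted p = 0.025) were called.

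Shh lay the other way, at 36.2, 34.6 and 30.9 CPM in controls and 28.4, 28.4 and 16.7 CPM in KI. The KI embryos were all below the controls, with a fold change of -0.47 (SE 0.29, edgeR adjusted p = 0.267). Summed notochord markers were 21.2 to 38.2 CPM in controls and 13.7 to 22.1 CPM in KI, and floor plate markers 191 to 242 CPM and 158 to 197 CPM, with overlap in both. The part of either list in the Shh values was not tested. Gli3 was at 109, 125 and 98.8 CPM in controls and 92, 102 and 96.8 CPM in KI (-0.20, SE 0.08, edgeR adjusted p = 0.0714), and without the third control it was called (-0.27, edgeR adjusted p = 0.0128). Smo and Gli2 differed by -0.06 (SE 0.07) and 0.14 (SE 0.09).

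The third embryo of each E9.5 group carried another number in its title than the other 4 embryos, and the labels do not say what this number marks. Within each number the KI embryos were above the controls for Ptch1, Gli1 and Hhip. A fit with this number as a block called 4 of the 8 at E9.5, namely Ptch1 (0.45, edgeR adjusted p = 0.000103), Hhip (0.47, edgeR adjusted p = 0.0307), Gli1 (0.24, edgeR adjusted p = 0.0348) and Gli3 (-0.20, edgeR adjusted p = 0.0464). Embryos that share a number did not deviate together in every pair (r 0.001 to 0.119). Summed visceral endoderm markers at E9.5 were 121 to 128 CPM in controls and 296 to 454 CPM in KI, summed neuron markers 147 to 219 CPM in controls and 41.1 to 44.6 CPM in KI, and summed neural progenitor markers 651 to 847 CPM in controls and 391 to 479 CPM in KI. Their part in these values was not tested.

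Between the stages, control embryos had 1 member higher and 2 lower, beside 24.2% of genes called, 12.2% higher and 12.1% lower. KI embryos had 3 higher and 1 lower, beside 32.5%, 15.9% higher and 16.6% lower. In controls Ihh fell by -2.51 (SE 0.65, edgeR adjusted p = 0.0143) and Gli1 by -0.54 (SE 0.12, edgeR adjusted p = 0.00296) from E8.5 to E9.5, and Gli3 rose by 0.25 (SE 0.08, edgeR adjusted p = 0.0261). The Ihh call was lost without the first or the second E9.5 control, the Gli3 call without any of 4 controls. In controls summed visceral endoderm markers went from 225 to 734 CPM at E8.5 to 121 to 128 CPM at E9.5, neural progenitor markers from 418 to 455 CPM to 651 to 847 CPM, and neuron markers from 48.7 to 57.6 CPM to 147 to 219 CPM. In KI embryos Hhip rose by 0.99 (SE 0.20, edgeR adjusted p = 0.000912), Gli2 by 0.28 (SE 0.09, edgeR adjusted p = 0.0277) and Gli3 by 0.25 (SE 0.08, edgeR adjusted p = 0.0212), while Smo fell by -0.26 (SE 0.07, edgeR adjusted p = 0.00891). Ihh differed by -1.46 in KI embryos (SE 0.62, edgeR adjusted p = 0.0915), and was called lower in DESeq2 (adjusted p = 0.0264) and without the second E8.5 KI embryo (edgeR adjusted p = 0.0199). In KI embryos visceral endoderm markers overlapped between the stages, at 227 to 688 CPM and 296 to 454 CPM, neural progenitor markers went from 339 to 376 CPM to 391 to 479 CPM, and neuron markers from 47.2 to 56.2 CPM to 41.1 to 44.6 CPM. The part of these lists in the changes between stages was not tested. The Gli2 call was lost without any of 4 KI embryos and the Gli3 call without any of 3. The test of whether the change between stages differed between the genotypes called 0 of 8 in edgeR and in DESeq2, beside 6.63% of genes in edgeR, 3.39% higher and 3.24% lower. At an unadjusted p under 0.05 edgeR listed 3369 of all genes. With the title number as a block edgeR called Ptch1 in this test (0.41, adjusted p = 0.0136).

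The other genes of the pathway were followed as lists of 58, of which 57 were found in the tables. They cover ligand release, ligand binding, intracellular regulators, the primary cilium, neural, mesoderm and growth targets, and dorsal neural genes. Of the 57 tested at neural day 8, 13 rose and 8 fell in KI, 36.8% against 19.5% of all genes. At day 16 15 rose and 18 fell, 57.9% against 46.9%. The shares were 57.7% of 52 in trophectoderm against 50.9%, 38.5% of 52 in extraembryonic endoderm against 35.5%, 12.3% of 57 at E8.5 against 5.46% and 45.6% of 57 at E9.5 against 29.5%. In the averaged embryoid body course edgeR called 0 of 53.

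The list with most of its genes in 1 direction was that of ligand binding and co-receptors at neural day 16, where 5 of 6 fell and none rose, beside 19.7% of all genes lower, with a median of -1.67. Its most changed gene was Gas1, a co-receptor that aids SHH binding, at 205 to 247 CPM in flox and 27.7 to 27.9 CPM in KI (-2.82, SE 0.11, edgeR adjusted p = 8.21e-09). The other 4 were Cdon, Boc, Gpc3 and Lrp2, named here after their values were seen. At day 8 the same list had 3 genes higher and 1 lower, with Lrp2, an endocytic receptor of SHH, higher by 1.90 (SE 0.16, edgeR adjusted p = 5.31e-06).

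Neural target genes, those that SHH is known to induce in the ventral neural tube, had 4 of 6 higher and 1 lower at day 8, where 6.3% of all genes were higher and 13.2% lower. At day 16 they had 3 higher and 1 lower, where 27.1% of all genes were higher and 19.7% lower. Nkx2-2, a ventral progenitor factor, had 279 reads in KI against 5 in flox, a ratio of 56.9 with a 95% counting interval of 24.1 to 177. Nkx6-2 was the lower one (-0.57, SE 0.15, edgeR adjusted p = 0.0158). At day 16 Nkx2-2 had 46 reads in KI and 0 in flox, which puts the 95% counting lower limit of their ratio at 9.89. The lower one was Nkx2-9, with 1 read in KI and 13 in flox, a ratio of 0.0635 with a 95% counting interval of 0.00149 to 0.423. In the list of dorsal neural genes, those that hedgehog signalling is known to repress or that lie outside its range, Dbx1 fell at day 8, from 56.4 to 57.9 CPM in flox to 4.77 to 10 CPM in KI (-2.92, SE 0.31, edgeR adjusted p = 0.000424), while Pax3 rose (0.73, SE 0.10, edgeR adjusted p = 0.000238).

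Among mesoderm targets in embryos, Foxf1, a forkhead factor of splanchnic mesoderm, rose at E8.5, from 26.7 to 35 CPM in controls to 44.7 to 52.9 CPM in KI (0.69, SE 0.11, edgeR adjusted p = 0.000556). It also rose at E9.5, from 6.87 to 7.43 CPM to 21.5 to 23.5 CPM (1.63, SE 0.12, edgeR adjusted p = 9.13e-09). Pax1, a sclerotome factor, fell at both, from 8.41 to 12.1 CPM in controls to 1.41 to 1.64 CPM in KI in the younger embryos (-2.74, SE 0.23, edgeR adjusted p = 5.76e-07). In the older ones it fell from 17.7 to 22.3 CPM to 1.24 to 2.27 CPM (-3.48, SE 0.22, edgeR adjusted p = 2.81e-09). The neural target Olig2, a factor of motor neuron progenitors, fell by -0.76 (SE 0.20, edgeR adjusted p = 0.031) in the younger embryos. In the older ones it fell from 22.6 to 28.7 CPM in controls to 4.11 to 5.76 CPM in KI, by -2.34 (SE 0.19, edgeR adjusted p = 6.83e-08). Of 7 primary cilium genes 5 rose at E9.5, where 14.6% of all genes were higher, the most changed being Dync2h1, the heavy chain of the retrograde ciliary motor, by 0.46 (SE 0.09, edgeR adjusted p = 0.000981).

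In extraembryonic endoderm, beside the lower Ihh, the ligand release gene Scube2 fell from 3.05 to 3.98 CPM in flox to 0.354 to 0.469 CPM in KI (-3.10, SE 0.47, edgeR adjusted p = 0.000145). The growth target Mycn fell by -2.47 (SE 0.10, edgeR adjusted p = 4.13e-10). In trophectoderm the most changed lower gene among intracellular regulators was Kif7, a ciliary kinesin that acts on GLI proteins (-1.28, SE 0.18, edgeR adjusted p = 5.58e-05), which also fell at neural day 16 (-1.12, SE 0.12, edgeR adjusted p = 1.19e-05).

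**Figure D5:**
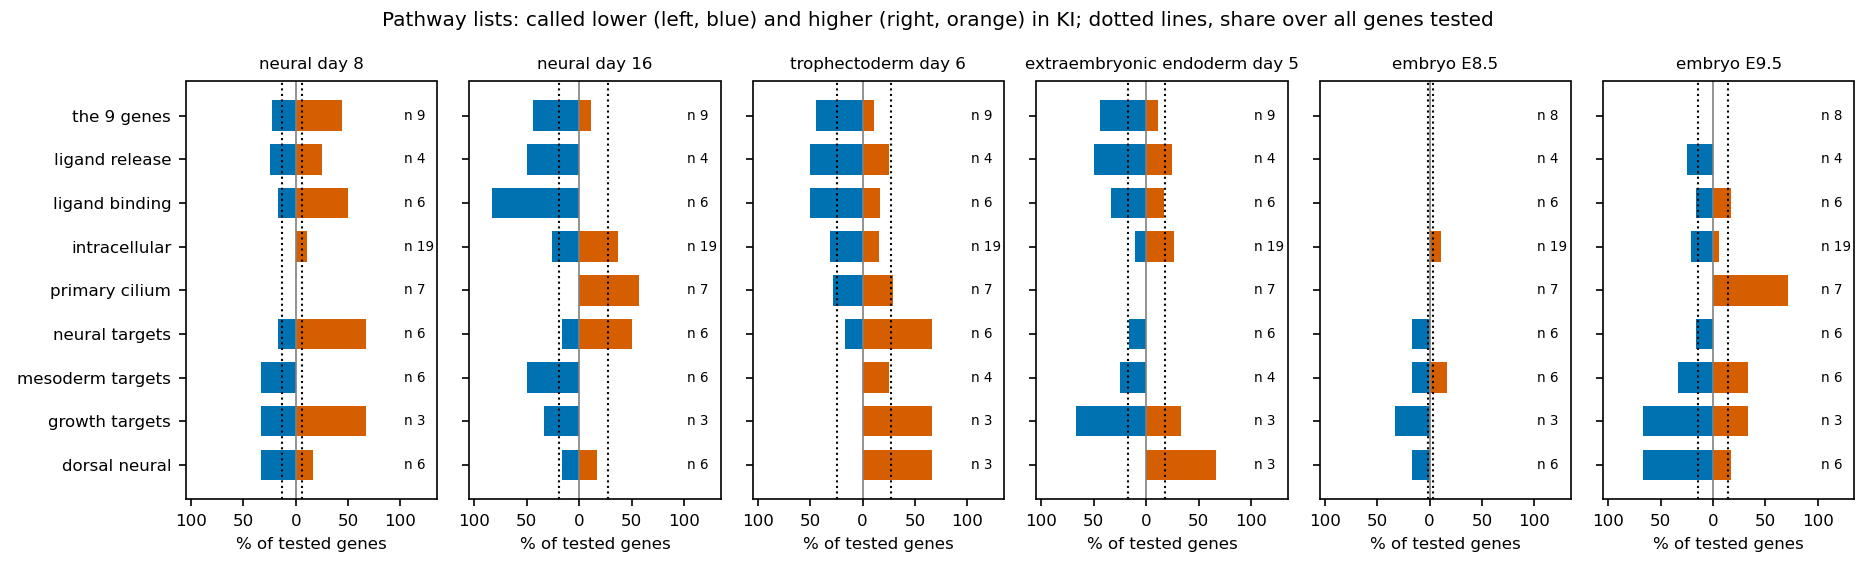
Percent of tested genes called lower (blue, left) and higher (orange, right) in KI for the 9 genes and 8 pathway lists in 6 comparisons, with the number tested at the right. Dotted lines give the share over all genes tested. Ligand binding genes reach 83.3% lower at neural day 16, and the 9 genes have no bar in the embryos.

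Over the 18 group means, on the log2(CPM + 0.5) scale and among 16560 genes that reached 1 CPM in some group, the genes whose levels were most like those of Shh were Twist1 (Pearson r 0.955), Fbxl22 (0.930) and Nkx6-1 (0.927). Those most like Ihh were Rfx6 (0.932), Kif12 (0.907) and Dpp4 (0.902). Ptch1 was nearest to Ramp2 (0.935), Frem1 (0.931) and Rgl1 (0.900). Gli1 was nearest to Pwwp2a (0.894), Ptch1 (0.891) and Ramp2 (0.874). These are descriptions over groups that share libraries' depth and cell makeup, and groups of the same culture are not independent points.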

How the data were processed

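Read counts and RPKM values per RefSeq transcript were deposited by the authors, 1 table per library. RNA was poly(A)-selected, per the labels' protocols. STAR, Bowtie2, bcl2fastq, SICER 1.1 and build mm9 appear in the submitters' processing notes without a role, and the counter and its use of strand are not given in the sources used here. Shh, Smo, Gli1, Gli2, Gli3 and Hhip overlap other annotated genes. The 29082 accessions per table were matched to symbols, 646 without success (1.25% to 2.13% of reads), and the transcript with most reads was kept per gene.

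Counts were tested in edgeR 4.0.16 (R 4.3.3) with filterByExpr (minimum count 10), TMM scaling, the quasi-likelihood test and Benjamini-Hochberg adjustment, in fits that held all groups of an experiment. SE was the absolute log2 fold change over the square root of F. On simulated data with 2-fold changes, 97% of 100 changed genes were recovered for neural day 8, 94% for extraembryonic endoderm and 83% for E9.5. False calls numbered 7, 9 and 10. The simulation had a fixed spread not estimated from these libraries and no differences between clones or groups beyond the set changes. Only genes above a minimum expected count were changed. These rates therefore do not give the sensitivity in the real libraries or for genes with few reads. Alternatives were DESeq2 1.42.0 and its size factors, no TMM, no filter, summed transcripts, only the 2 groups compared, a replicate block and leaving out each library. Leaving out a whole KI clone was added after seeing the data. Without TMM the median over all genes moved from 0.086 to -0.116 at neural day 16, from 0.013 to -0.189 for day 16 over day 8 in KI, from 0.084 to -0.086 for the neural difference in KI effect, and from 0.011 to 0.105 for KI day 4 over day 0.

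Libraries of 1 clone deviated together across days or cultures (r 0.171 to 0.318), as did E8.5 embryos that share a number in their titles (0.171 to 0.349). The 9 genes and all lists were chosen with earlier results of these data known. Pathway genes are named where they had the largest called change of their list and direction.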

Additional observations from a re-analysis of the deposited data

Results flagged for a closer look

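In 9 results the effect of KI differed between 2 stages or cultures by an interaction test in edgeR's quasi-likelihood fit. Between neural day 16 and day 8 the difference in log2 fold change was -1.61 for Gli3, -1.57 for Gli1, -1.49 for Gli2 and -1.43 for Smo. The same difference was 3.36 for Dhh, which rests on 24 and 4 reads at day 8 and 14 reads in KI at day 16. Between trophectoderm and extraembryonic endoderm the difference was 5.93 for Ihh, 0.80 for Ptch1, -1.30 for Gli3 and -1.20 for Smo. Ihh had 8 and 17 reads in flox and KI trophectoderm, against 426 and 14 in flox and KI endoderm. Marker sums also differed between KI and flox in these cultures, as given with each culture, and not all of them moved with these genes. Their part was not tested.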

How the results depend on the processing

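Of the members' values under alternatives, 1504 kept their direction and side of the threshold, 78 lost a call, 43 gained one and 47 changed sign. No value that changed sign was called on either side. Where a call was lost, the cause was not tested, except that leaving out a library leaves fewer samples, and a lone library is then assumed to vary like the other groups.

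With 1 library left out in turn, all genes called ranged from 1896 (without flox 2) to 2362 at neural day 8 against 3202, 3621 to 6038 for the neural difference in KI effect, and 3641 to 4967 in extraembryonic endoderm. They ranged from 363 (without control 3) to 755 at E8.5 against 843, and 607 (without E9.5 KI 2) to 1175 for the embryo difference against 1024. In the averaged embryoid body course they ranged from 26 to 356 against 113, and from 4982 to 5398 for KI day 4 over day 0. Members called ranged from 2 to 4 at neural day 8, 3 to 4 and 5 to 7 for day 16 over day 8 in flox and KI, 3 to 5 in trophectoderm, 2 to 6 in extraembryonic endoderm, 0 to 2 at E9.5, and 1 to 4 and 2 to 4 between stages in control and KI embryos.

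Fitting only the 2 groups called 5 members for day 16 over day 8 in KI and 1 at E9.5, as did no filter at E9.5 (1). In the averaged course DESeq2 called 778 genes and 2 members, and edgeR called 1 gene without clone 27 and 0 without clone 48.

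The replicate block with the embryos' title number called 1321 genes at E8.5. At E9.5, where embryos of 1 number did not deviate together in every pair (r 0.001 to 0.119), the same block called 4 members, Ptch1 (edgeR adjusted p = 0.000103), Hhip, Gli1 and Gli3. It called 1 in the embryo difference, Ptch1 (0.41, 0.0136). The block with the flox number, whose libraries correlated at 0.079, called Gli1 for day 16 over day 8 in flox (edgeR adjusted p = 2.32e-05). Beyond these and the Dhh and Ptch1 values given with the neural results, the block changed no member's call.

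Signs changed as follows. The neural difference in KI effect moved to -0.10 without TMM for Hhip, and to -0.15 without TMM, -0.02 with DESeq2 size factors and -0.03 in DESeq2 for Shh. In the averaged course Dhh and Hhip were -0.02 in DESeq2, Gli3 -0.03 without clone 27 and Smo -0.29 without day 0. Gli1 was 0.01 without TMM for KI day 4 over day 0. With 1 library left out, ranges that crossed 0 were -0.63 to 0.54 (Hhip) and -0.15 to 0.20 (Shh) for the neural difference, -0.26 to 0.92 (Hhip) and -0.20 to 0.06 (Ptch1) at neural day 16, and, for Shh over the neural days, -0.10 to 0.04 in flox and -0.17 to 0.18 in KI. In trophectoderm they were -0.60 to 0.29 (Dhh) and -1.04 to 1.75 (Ihh). At E8.5 they were -0.23 to 0.01 (Gli1), -0.07 to 0.04 (Gli2), -0.18 to 0.12 (Hhip), -1.04 to 0.39 (Ihh), -0.11 to 0.22 (Ptch1) and -0.33 to 0.25 (Shh), and between stages in KI -0.22 to 0.07 (Ptch1) and -0.21 to 0.14 (Shh). In the averaged course they were -0.63 to 0.53 (Dhh), -0.17 to 0.33 (Gli1), -0.76 to 1.52 (Hhip), -0.87 to 1.92 (Ihh), -0.38 to 0.10 (Ptch1) and -0.29 to 0.29 (Smo), and for KI day 4 over day 0 -0.23 to 0.03 (Gli1). Depth limits Dhh most, with 13 libraries at or under 3 reads.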
